A study of Mus musculus with 3 samples.

Results

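Claudins and their partner proteins of the tight junction were followed in mouse embryonic stem (ES) cells after loss of Oct3/4. The 8 genes are the claudins Cldn3, Cldn4, Cldn6 and Cldn7, the occludin gene Ocln, the junctional adhesion molecule gene F11r, the scaffold gene Tjp1 (ZO-1) and the cingulin gene Cgn. They were chosen by name, with earlier results of these data known, so they are not an independent list. Each probe set that the array annotation gives to exactly 1 of them was taken, which makes 14 of 45037 probe sets. A probe set is a group of short probes designed for a transcript, and its signal is the intensity the authors deposited. Of the 14, 12 had a mean signal over the arrays of at least 55.9, the 40th percentile of all signals, and were kept, so that all 8 genes are among the 12717 genes measured.

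In these cells Pou5f1, which encodes Oct3/4, could be knocked out conditionally; Oct3/4 is a transcription factor without which the pluripotent state is lost. The 3 groups are total RNA of the conditional knockout at day 0, day 1 and day 2. Each has 1 array, so no difference has a replicate check and no test was possible. The line, its clone, the strain, the culture conditions and the way the knockout was induced are not given in the sources used here, and no culture that kept Oct3/4 was profiled at the later days. Time in culture, any inducing treatment and loss of Oct3/4 therefore cannot be told apart. In such bulk RNA, a change in the share of cells that express a gene cannot be told apart from a change in the RNA per cell.

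Tight junctions close the space between neighbouring epithelial cells. Claudins are membrane proteins with 4 transmembrane helices whose outer loops form the seal and set which ions pass; occludin and junctional adhesion molecules lie beside them, and ZO-1 and cingulin tie the complex to the actin cytoskeleton. In the preimplantation embryo the first such seal is built by the trophectoderm, the outer layer that goes on to form the placenta and that pumps fluid into the blastocyst cavity. Claudin-4 and claudin-6 are known components of the trophectoderm seal.

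The targeted gene itself had signals of 2400.4, 40.8 and 15.5 for Pou5f1 in the order of the days. All 10 ES cell markers examined were above the constant at day 0, and they summed to signals of 135743, 84279 and 32207 over the 3 days. The 10 trophectoderm markers summed to 8235, 13245 and 56709 in the same order, and each of them was at least 2-fold higher at day 2. At day 1, 4 of them were. Over all measured genes 5.25% were at least 2-fold higher at day 2 and 5.65% lower, and at day 1 2.4% and 2.59%. The keratin genes Krt18 (4026, 4938 and 24610) and Krt8 (2474, 3475 and 18358) make up most of the trophectoderm sum. The 10 primitive endoderm markers, dim ones included, summed to 2815, 6298 and 7703, and of the 7 measured 3 were at least 2-fold higher at day 2, Col4a1 (1.89), Gata6 (1.46) and Dab2 (1.33), and 0 lower. Col4a1 (1061, 2972 and 4072) and Lamb1 (1137, 2118 and 2229) make up most of the primitive endoderm sum. The lineage factor Gata6 had signals of 131, 457 and 458, while Gata4 had 76.0, 59.4 and 41.9 and Sox17 86.2, 69.7 and 61.9. Sox7 (21.6, 44.1 and 41.1) and Foxa2 (6.70, 29.1 and 86.5) had their lowest signals at day 0, with means below the constant. Fibroblast markers, which would show feeder cells, had 7 of 10 genes with a mean below the constant, Col1a1, Col3a1 and Dcn among them. They summed to 763, 656 and 529, a fall that lies in Thy1 (399.8, 275 and 89.3), while Col1a2 had 96.8, 102 and 127. Endothelial markers summed to 876, 816 and 465 over 8 genes, with the means of Cdh5, Tie1 and Emcn below the constant. The fall lies mostly in Esam (211, 85.8 and 13.5), Robo4 (186, 86.7 and 83.4), Cldn5 (217, 242 and 132) and Tek (127, 172 and 52.9). Of these, Esam and Cldn5 are also counted among the tight junction genes. Emcn had signals of 8.80, 50.0 and 73.3, and Cdh5 of 24.6, 81.1 and 33.1. The part of any of these in the junction results was not tested.

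All 8 junction genes, each read from its brightest probe set, had their lowest signal at day 0 and their highest at day 2. Every difference below is of log2(signal + 55.9) between 2 arrays, a scale on which 1 is a 2-fold difference. At day 2 the 4 claudins were at least 2-fold above day 0, and Tjp1, Ocln, F11r and Cgn were above it by less than 2-fold. None was at least 2-fold lower. Among all measured genes 5.25% passed 2-fold upwards and 5.65% downwards. The median of the 8 genes was 1.08, beside 0.05 for all genes. The only error the arrays allow is the disagreement between probe sets of the same gene, a pooled SD of 0.34 for day 2 against day 0 over 5906 genes with several kept probe sets; it does not include variation between cultures.

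**Figure D1:**
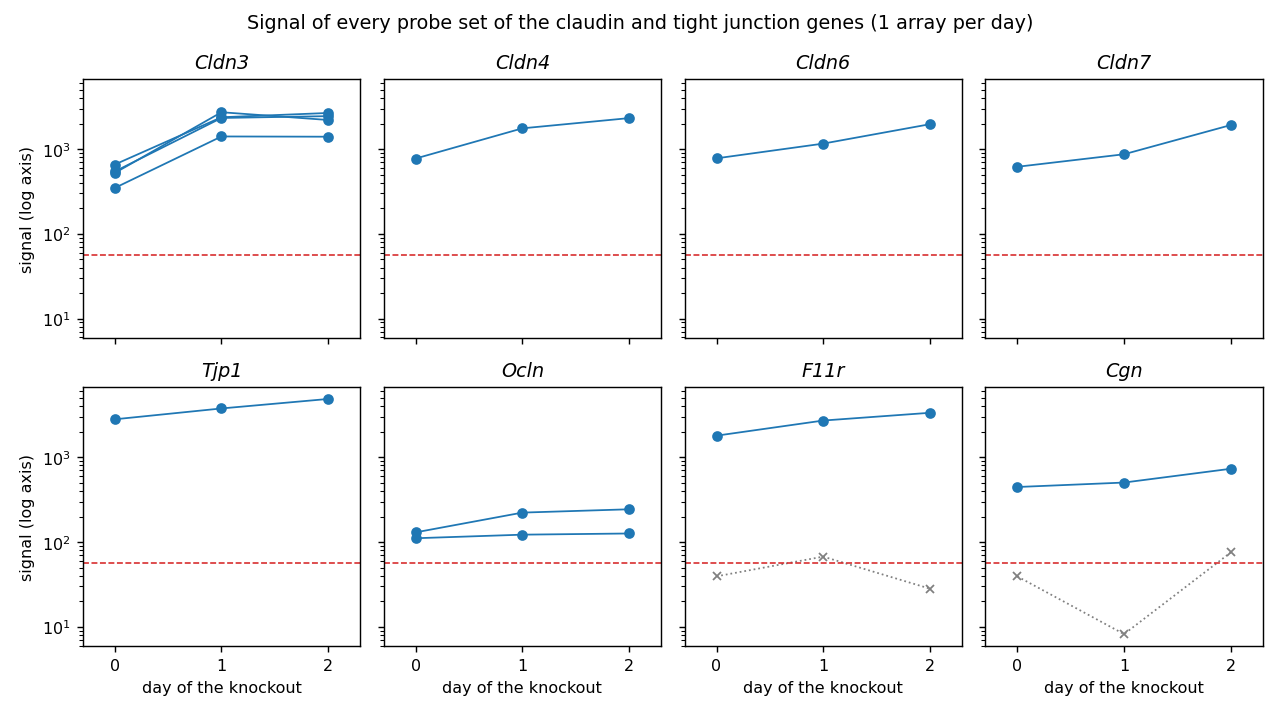
Signal of each of the 14 probe sets (vertical log axis) at day 0, day 1 and day 2, 1 panel per gene, 1 array per day. Blue lines with filled points are kept probe sets, grey dotted lines with crosses are those with a mean signal under 55.9 (red dashed line). Each of the 12 kept lines starts at its lowest point, and Cldn3 makes most of its step by day 1 while Cldn7 makes most of it after day 1.

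Cldn3 encodes a claudin that tightens the barrier of many simple epithelia. In its brightest probe set the signals were 657, 2374 and 2666 over the 3 days. The day 0 array was thus well below both later arrays, which lay close to each other. On the log2 scale Cldn3 was higher by 1.77 at day 1 and by 1.93 at day 2, a raw signal ratio of 3.61 and 4.06. Only 12 of the 12717 genes had a larger positive difference at day 1, and 80 at day 2. Cldn3 is the one member with 4 kept probe sets. The other 3 went from 523 to 2719.9 and 2203, from 544 to 2327 and 2446, and from 348 to 1408 and 1399. Across the 4 probe sets the day 2 difference ran from 1.85 to 2.06 (SD 0.09, n = 4 probe sets) and the day 1 difference from 1.77 to 2.26 (SD 0.22). The step from day 1 to day 2 ran from -0.30 to 0.16, so its sign is unresolved. All 4 probe sets end in _a_at or _x_at, suffixes for probes shared between transcripts of a gene or able to bind other transcripts; they are not independent measurements.

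Cldn4 encodes another barrier-forming claudin and is the neighbour of Cldn3 on the chromosome. In the GRCm38.p6 annotation Cldn4 lies on chromosome 5 at 134945123 to 134946934 and Cldn3 at 134986214 to 134987476, on opposite strands with 39279 bases between them. Cldn4 had signals of 774, 1756 and 2318 from day 0 to day 2. The values climbed over both intervals, with the larger part in the first. Cldn4 was higher by 1.13 at day 1 and by 1.52 at day 2.

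Cldn6, a claudin of embryonic epithelia, had signals of 777, 1159 and 1964 in the order of the days. It was higher by 0.54 at day 1 and by 1.28 at day 2, so that the larger part of its difference arose after day 1. Cldn6 lies on chromosome 17 at 23679348 to 23682446, and Cldn9 is next to it, with 137 bases between them. Cldn9 took another course, with signals of 185, 541 and 347 and differences of 1.31 at day 1 and 0.74 at day 2. Its other kept probe set gave 1.02 and 0.23.

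Cldn7, which in epithelia also lies along the lateral membrane below the tight junction, had signals of 618, 868 and 1919. The day 1 array was nearer to day 0 than to day 2. Cldn7 was higher by 0.46 at day 1 and by 1.55 at day 2, and between day 1 and day 2 it was the only one of the 8 genes at least 2-fold higher, by 1.10. Of all measured genes 2.09% passed 2-fold upwards over that interval and 2.65% downwards.

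At day 1, Cldn3 and Cldn4 were the 2 of the 8 genes at least 2-fold above day 0, and 0 were at least 2-fold lower. Over all genes the shares were 2.4% higher and 2.59% lower. The median of the 8 genes was 0.56, beside 0.04 for all genes, and the pooled SD between probe sets was 0.30. With the arrays scaled to equal medians, a change that shifts the day 1 median over all genes by -0.13, Cldn4 was at 0.99 and Cldn3 alone passed 2-fold. That scaling put 193 of all genes past 2-fold upwards and 446 downwards at day 1, where the scaling used throughout gave 305 and 330; with equal medians of ribosomal protein genes the split was 205 and 435.

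The 4 claudins thus differed in when they changed on these arrays. The day 1 difference was 91.5% of the day 2 difference for Cldn3, 74.3% for Cldn4, 42.6% for Cldn6 and 29.4% for Cldn7, each share being of differences on the log2 scale. Over the alternative settings tried the shares ran from 87.1% to 100.9% for Cldn3, from 67.9% to 75.4% for Cldn4, from 33.4% to 43.3% for Cldn6 and from 21.4% to 29.7% for Cldn7. These ranges did not overlap, but they come from reprocessing the same 3 arrays and hold no variation between cultures. Each rests on a single day 1 array, and equal array medians gave the lowest share for each of the 4. Nor do the ranges cover single probe sets, as 1 of Cldn3 was at 2.26 at day 1 and 1.97 at day 2. At day 1 the differences of Cldn6 and Cldn7 were within the pooled probe set SD of each other.

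The promoters of the claudins are shown because all 4 genes were at least 2-fold higher at day 2. They are the 250 bases before an annotated start from RefSeq (GRCm38.p6), 5′ to 3′ on the strand of the gene. They lie at chr5:134985964-134986213 (plus strand) for Cldn3, chr5:134946935-134947184 (minus strand) for Cldn4, chr17:23679115-23679364 (plus strand) for Cldn6 and chr11:69964529-69964778 (plus strand) for Cldn7. The Cldn6 window belongs to a start that lies inside the gene record given above, so its last bases fall within that record. Capitals mark a match to 1 of 6 motifs, searched on both strands: GCCNNNGGC (AP-2), AACNGGTT (Grainyhead-like factors), CAGGTG (an E-box bound by Snail and Zeb factors), GGAATG (TEAD factors), ATGCAAAT (the octamer of Oct factors) and GGGCGG (the GC box).
Cldn3: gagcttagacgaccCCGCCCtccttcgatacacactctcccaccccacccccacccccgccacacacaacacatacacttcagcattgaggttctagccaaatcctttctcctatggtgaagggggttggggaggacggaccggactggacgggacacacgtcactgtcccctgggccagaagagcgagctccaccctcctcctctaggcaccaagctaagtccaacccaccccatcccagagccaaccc
Cldn4: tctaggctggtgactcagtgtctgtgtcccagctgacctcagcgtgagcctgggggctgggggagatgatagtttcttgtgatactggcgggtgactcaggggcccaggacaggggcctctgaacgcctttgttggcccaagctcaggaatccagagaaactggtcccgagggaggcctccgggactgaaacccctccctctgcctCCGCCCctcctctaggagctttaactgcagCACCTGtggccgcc
Cldn6: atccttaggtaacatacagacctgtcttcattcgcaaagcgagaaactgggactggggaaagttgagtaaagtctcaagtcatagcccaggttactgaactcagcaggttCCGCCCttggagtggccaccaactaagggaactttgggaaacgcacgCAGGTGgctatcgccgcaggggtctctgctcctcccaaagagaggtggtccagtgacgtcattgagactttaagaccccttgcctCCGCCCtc
Cldn7: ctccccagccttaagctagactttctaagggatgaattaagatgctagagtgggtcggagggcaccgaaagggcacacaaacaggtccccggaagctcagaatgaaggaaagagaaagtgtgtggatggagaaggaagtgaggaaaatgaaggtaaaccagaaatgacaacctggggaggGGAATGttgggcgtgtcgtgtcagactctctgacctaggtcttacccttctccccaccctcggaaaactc

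Cldn3 held a GC box that begins 236 bases before the start and no other of the 6 motifs. Cldn4 held a GC box at 44 bases and the E-box at 14 bases before the start. Cldn6 held the same 2 motifs, with GC boxes at 140 and 8 bases and the E-box at 93 bases. The Cldn7 window shown held GGAATG at 70 bases, and a further annotated start of Cldn7 had the E-box at 97 and 57 bases and a GC box at 6 bases. Of 32851 promoter windows of this length, 32.7% held the GC box, 17.2% the E-box and 12.6% GGAATG. The AP-2 motif (13.7% of windows), the Grainyhead-like motif (1.79%) and the octamer (1.60%) were in none of the 4 windows shown; the Grainyhead-like motif was in that of Cgn, 29 bases before the start, and the AP-2 motif in 1 of the 2 windows of Ocln. A match is a description of letters in a window, and nothing was measured on binding.

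Occludin, the tight junction protein of the MARVEL family, had low signals on these arrays. The brighter probe set of Ocln had signals of 130.1, 223 and 243 at day 0, day 1 and day 2, and the other 111, 122 and 126. Both had their lowest value at day 0, but the difference at day 2 was 0.69 in one and 0.13 in the other. Their mean was 0.41, so the size of the Ocln difference depends on the probe set.

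F11r, the gene of JAM-A, an immunoglobulin-like adhesion protein that helps place the junction, had signals of 1799, 2712 and 3348. It was higher by 0.58 at day 1 and by 0.88 at day 2. The other F11r probe set, which ends in _x_at, had signals of 39.4, 67.3 and 28.2, around the added constant, and was not kept.

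Tjp1 encodes ZO-1, the scaffold that clusters claudins at the membrane. Its single probe set had signals of 2806, 3767 and 4875, with a difference of 0.42 at day 1 and 0.78 at day 2. That probe set ends in _a_at.

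Cgn encodes cingulin, which links the junction plaque to actin and myosin. Its kept probe set had signals of 446, 503 and 732. The day 1 array was close to day 0, with a difference of 0.16, and the day 2 difference was 0.65. A dim probe set of Cgn had signals of 39.3, 8.20 and 75.4 and was not kept. Tjp1, Ocln, F11r and Cgn had larger day 2 differences than 91.2%, 88.9%, 92.9% and 87.8% of all genes, and the claudins than 97.4% (Cldn6) to 99.4% (Cldn3).

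**Figure D2:**
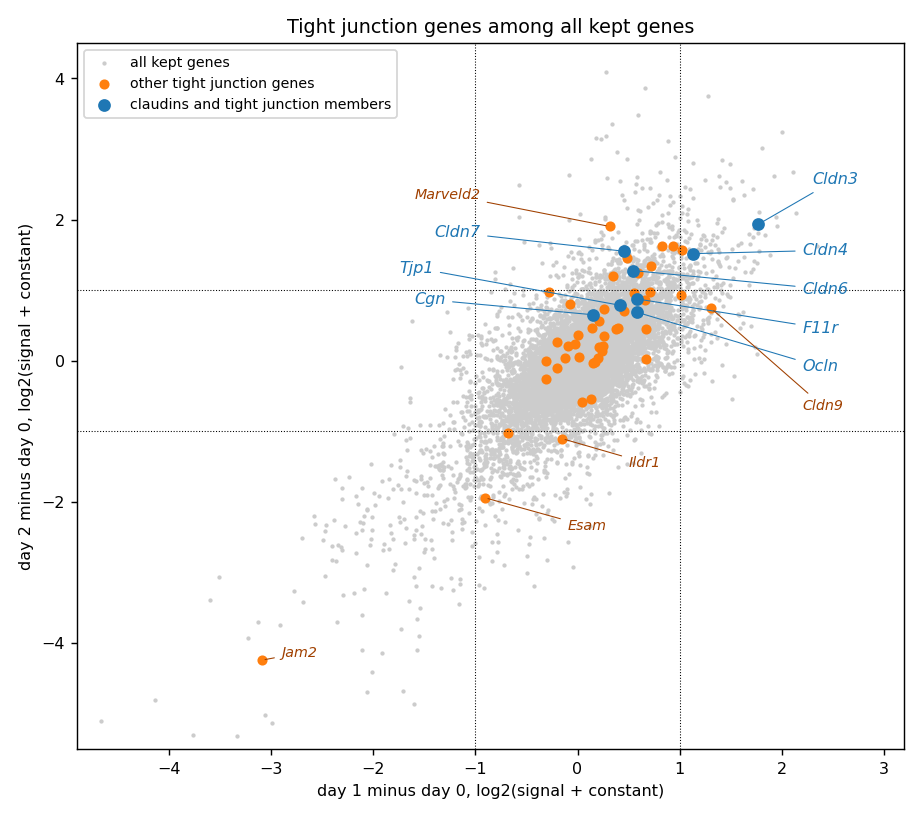
Difference of each measured gene at day 1 (horizontal) and day 2 (vertical) against day 0, on the log2(signal + 55.9) scale; grey points are all 12717 genes, orange points the other tight junction genes and blue points the 8 junction genes described here. Dotted lines mark 2-fold. The 8 blue points lie above 0 on both axes, 4 of them above the 2-fold line at day 2, and Jam2 lies far to the lower left at -3.09 and -4.24. Both axes share the day 0 array, so the slope of the cloud is no measure of agreement.

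The nearest genes by pattern were sought for the 4 claudins, as the smallest distance in the plane of the day 1 and day 2 differences over 3 arrays. Closest to Cldn3 was Bhmt (1.72 at day 1 and 1.88 at day 2), then Rab20 (1.76 and 1.80). Closest to Cldn4 were Smpdl3a (1.14 and 1.49) and Cln6 (1.18 and 1.53), to Cldn6 Lhfp (0.56 and 1.30) and Sh3bgr (0.51 and 1.28), and to Cldn7 Fthl17a (0.45 and 1.57) and Ilk (0.47 and 1.53). Within a distance of 0.1 there was 1 gene for Cldn3, 9 for Cldn4, 25 for Cldn6 and 12 for Cldn7. Cldn3 lies furthest from the dense centre of the plane, where any such circle holds fewer genes, and the 0.1 is smaller than the SD between its own probe sets at day 1, so these counts do not rank the claudins. None of these 8 nearest genes was in the tight junction lists.

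The rest of the junction was read from lists by role, also chosen with earlier results of these data known. Together they hold 45 measured genes besides the 8. Of these, 8 (17.8%) passed 2-fold upwards at day 2 and 4 (8.89%) downwards, beside 5.25% and 5.65% of all genes, with a median of 0.37. At day 1, 3 (6.67%) were higher and 1 (2.22%) lower, beside 2.4% and 2.59% of all genes, with a median of 0.21. The 3 became 1 under each of 4 alternatives: a larger constant, equal array medians, equal ribosomal protein medians and the mean over probe sets.

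Among claudins, 21 of the 26 listed had a probe set of their own, and 9 of those had a mean signal below the constant: Cldn1, Cldn2, Cldn8, Cldn11, Cldn13, Cldn16, Cldn19, Cldn23 and Cldn34c1. Of the 12 measured, Cldn3, Cldn4, Cldn6 and Cldn7 were at least 2-fold higher at day 2 and the other 8 were within 2-fold. Cldn12, a claudin with signals of 1545, 1706 and 2160, was at 0.47. Cldn5, the claudin of blood vessel lining, was at -0.54, with signals of 217, 242 and 132. The remaining ones, Cldn10, Cldn14, Cldn15, Cldn18 and Cldn22, had signals of at most 109.2 and lay between -0.03 and 0.70. At day 1, Cldn9 (1.31) joined Cldn3 and Cldn4 past 2-fold.

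Other membrane proteins of the junction differed in both directions. The tricellulin gene Marveld2, whose protein seals the corners where 3 cells meet, had signals of 104, 143 and 543 and was higher by 1.90 at day 2 and by 0.31 at day 1. It is the next gene after Ocln on chromosome 13, with 43238 bases between them. Marveld3, of the same protein family as occludin, was at 1.63 (signals 107, 232 and 445; 0.88 in its lowest probe set), and Lsr, the lipolysis-stimulated receptor that brings tricellulin to those corners, at 1.24 (491, 769 and 1236).

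The lower genes of this group were adhesion molecules and a relative of Lsr. Jam2, the gene of JAM-B, had signals of 3148, 319 and 113. Its difference was -3.09 at day 1 and -4.24 at day 2, or -2.61 in the probe set with the smallest day 2 difference. Its relative F11r was higher on the same arrays, and Jam3 was at 0.21 at day 2. Esam, an adhesion molecule known from endothelium, was at -1.94 (211, 85.8 and 13.5, the last below the constant), and Ildr1 at -1.10 (492, 436 and 199). Of the 11 measured genes of this group, F11r and Ocln included, 3 (27.3%) were at least 2-fold higher at day 2 and 3 (27.3%) lower. The median was 0.69, and over all genes the shares were 5.25% and 5.65%.

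**Figure D3:**
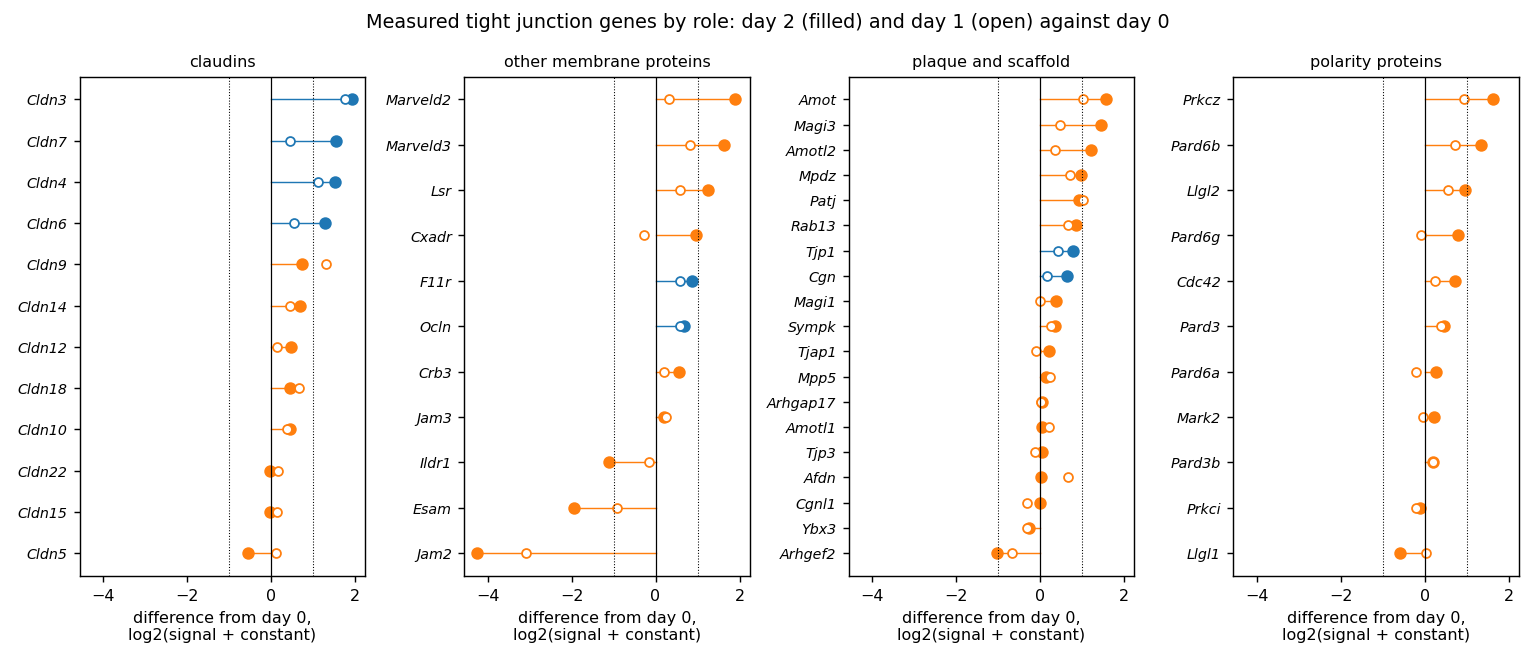
Differences from day 0 on the log2(signal + 55.9) scale for the 53 measured tight junction genes, 1 panel per role, filled circles for day 2 and open circles for day 1; blue marks the 8 genes described here and orange the others. Dotted lines mark 2-fold. Cldn3, Cldn4, Cldn6 and Cldn7 are the claudins to the right of the 2-fold line at day 2, and Jam2, Esam and Ildr1 lie to the left of it.

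Of 19 plaque and scaffold genes, Tjp1 and Cgn included, 3 (15.8%) were at least 2-fold higher at day 2 and 1 (5.26%) lower. The median was 0.34, and over all genes the shares were 5.25% and 5.65%. Magi3, a multi-PDZ scaffold gene, was at 1.45 (signals 379, 550.2 and 1134). The angiomotin genes Amot and Amotl2, whose proteins bind Yap at junctions, were at 1.56 and 1.21, but the probe sets of Amot ran from -0.33 to 1.56 and their mean was 0.61. Arhgef2, whose protein cingulin binds, was lower at -1.02, or -0.72 as the mean of its probe sets. At day 1, Amot (1.02) and Patj (1.01) were just past 2-fold, with means over probe sets of 0.08 and 0.54. Tjp3 (ZO-3) was at 0.04 and the cingulin-like gene Cgnl1 at -0.01, beside 0.78 for Tjp1 and 0.65 for Cgn.

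Of 11 polarity genes, which set up the apical side of the cell, 2 (18.2%) were at least 2-fold higher at day 2 and 0 lower. Over all genes the shares were 5.25% and 5.65%, and 0 lower among 11 genes is near the latter. The median of the 11 was 0.46. Pard6b was at 1.34 (signals 696, 1179 and 1845; 1.13 in its lowest probe set). Prkcz, an atypical protein kinase C gene, was at 1.62 (634, 1265 and 2070.3), with 0.64 in its lowest probe set. Prkci, the other atypical kinase gene, was at -0.11 with signals of 4750.3, 4126 and 4400.4. At day 1, 0 of these genes were past 2-fold, where 2.4% of all genes were higher and 2.59% lower.

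Genes of blastocyst fluid transport, which works across the sealed trophectoderm, were mostly within 2-fold of day 0. Of 11 measured, 0 were at least 2-fold higher at day 2 and 1 was lower, with a median of -0.29; counts this small are near the shares over all genes (5.25% and 5.65%). The lower gene was the water channel gene Aqp3 at -1.93, with signals of 1937, 1067 and 465 and -2.26 in the lowest of its 3 kept probe sets. The sodium pump subunit gene Atp1b1 was at -0.64 (3220.4, 3088 and 2042), and its 5 kept probe sets ran from -0.89 to -0.13. Atp1b3 was at -0.06 and Atp1b2 at -0.38, with -1.07 in the lower of the 2 kept probe sets of Atp1b2.

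Transcription factors linked to epithelial junction genes were mixed. Of 17 measured, 3 (17.6%) were at least 2-fold higher at day 2, Cdx2 (2.09), Elf3 (1.55) and Tfap2c (1.21). Another 2 (11.8%) were at least 2-fold lower, Klf4 (-1.93) and Klf5 (-1.92). The median was 0.34, and over all genes the shares were 5.25% and 5.65%. The signals were 152, 856 and 828 for Cdx2, the trophectoderm factor, 1115, 1598 and 3369 for Elf3, an ETS factor of epithelia, and 2810.2, 3460.2 and 6584 for the AP-2 gene Tfap2c. The kept probe sets of Tfap2c ran from 1.21 to 2.01 at day 2 and from 0.29 to 0.79 at day 1. At day 1, Cdx2 (2.14) and Grhl3 (1.29; signals 775, 1970.3 and 1219.8) were higher and Klf5 (-1.95) was lower. Grhl2, a direct activator of claudin genes in other epithelia, was at -0.55 (577, 499 and 377) in its brighter probe set and at 0.04 in the other, Grhl1 at 0.34 and Tead4 at 0.53. The measured repressors of epithelial genes stayed within 2-fold at day 2. Snai1 was at 0.42, Snai2 at 0.36, Zeb1 at 0.28 and Zeb2 at 0.12. The signals of Snai2 (72.2, 161 and 109) and Zeb2 (64.6, 132 and 75.4) were low, so the added constant shrinks their differences. The other Snai2 probe set was at -0.07, and Twist1 had a mean signal below the constant. Tfap2a (0.62), Hnf4a (0.31), Ovol1 (0.10) and Ovol2 (0.14) had signals of at most 141 in their brightest probe sets. The 3 kept probe sets of Tfap2a ran from 0.11 to 1.06 at day 2 and from 0.14 to 1.18 at day 1.

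**Figure D4:**
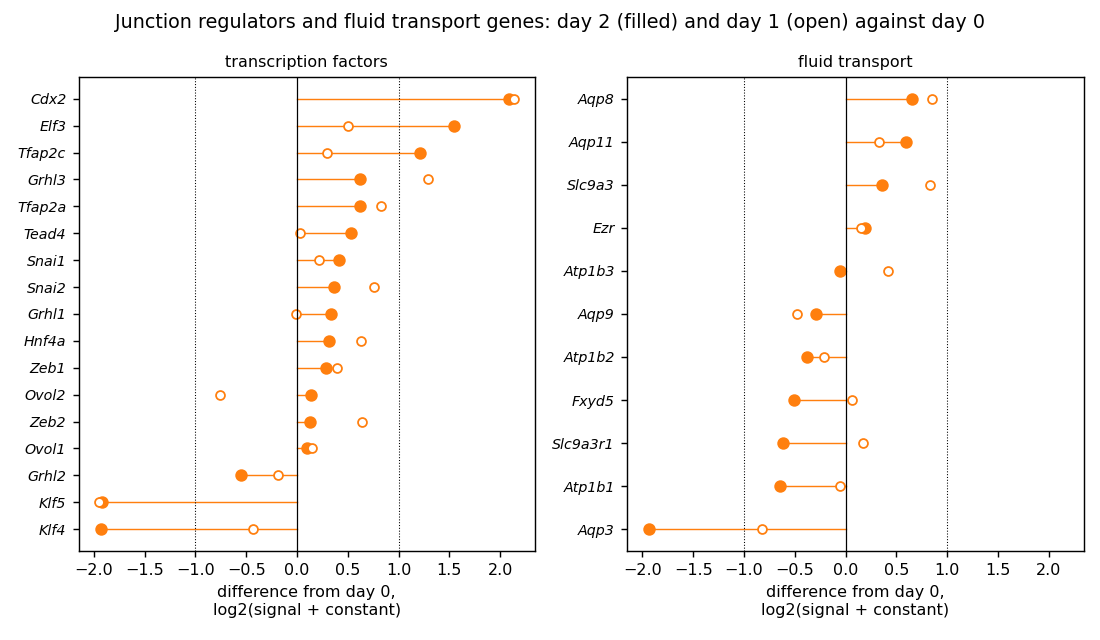
Differences from day 0 on the log2(signal + 55.9) scale for 17 transcription factor genes and 11 fluid transport genes, filled circles for day 2 and open circles for day 1, with dotted lines at 2-fold. Cdx2 lies to the right of the line on both days, Elf3 and Tfap2c at day 2 and Grhl3 at day 1, while Klf4, Klf5 and Aqp3 lie to the left at day 2.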

How the data were processed

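The data are 3 Affymetrix arrays, 1 per day. The authors deposited an intensity per probe set; MAS5, with no version, is the tool named in the submitters' processing notes. The 64 probe sets without a value on every array, all named as controls, were left out. Arrays were scaled to a common 2% trimmed mean (498 on each already), the 40th percentile of pooled signals (55.9) was added, and log2 differences were taken with Python 3.11.15, numpy 2.4.6 and pandas 2.3.3. Probe sets with a mean signal under the constant were left out, which kept 26925. Genes were named from the platform annotation, where 34945 probe sets have 1 gene, 932 several and 9160 none; those with several named none. A listed symbol without a probe set was looked up among older symbols; Cldn25 and Cldn26 are older symbols of other genes and were not replaced.

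Members, lists and motifs were chosen with earlier results of these data known. Named were all members, the list genes past 2-fold at day 1 or day 2, all measured transcription factors, and the 2 genes nearest each claudin; further list genes were named after their values were seen. Other settings tried were the constant, scaling, filter, and choice of probe sets. The calculation was tested on simulated data. Precision is limited by having 3 arrays.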

Additional observations from a re-analysis of the deposited data

How the results depend on the processing

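The 9 alternatives tried changed the constant, the scaling, the filter on dim probe sets or the probe sets used. Under them all 8 genes stayed above 0 at day 1 and day 2 wherever they were measured. Changing the filter, or dropping probe sets by suffix, could not move any of the 8 genes still measured, since its probe set stayed the same. Cgn at day 1 came closest to 0, at 0.024 with equal array medians and 0.038 with equal ribosomal protein medians. The count of genes at least 2-fold higher at day 1 was 1 with equal array medians and 1 when _x_at, _s_at and _a_at probe sets were dropped, which leaves out Cldn3 and Tjp1 and so leaves 6 genes. The day 2 count was 3 in that last setting, again for want of Cldn3, and 4 in the others. The Cldn3 difference from day 1 to day 2 was -0.018 as the mean over its probe sets. No paired analysis was possible because each day has 1 array. Among other tight junction genes, chosen for this check after seeing the data, the number at least 2-fold higher ran from 6 to 11 at day 2 and from 1 to 4 at day 1, the number lower from 2 to 4 and from 1 to 2, and Ildr1 (-0.96) and Arhgef2 (-0.91) were within 2-fold with a constant 2 times as large. Among the transcription factors, dropping probe sets by suffix moved Tfap2c from 1.21 to 2.01 and Klf5 from -1.92 to -1.49 at day 2. Whether the day 2 array was processed apart from the others was not tested; its column alone holds values for the control probe sets.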
